A study of Mus musculus with 24 samples.

Results

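The insulin-like growth factor (IGF) axis was represented by 10 genes, Igf1, Igf2, H19, Igf1r, Insr, Irs1, Irs2, Igfbp3, Igfbp4 and Igfbp5, chosen by name from the 24537 genes of the count table. All 10 were found, each as 1 row, and all 10 passed the filter on low counts. RNA-seq was done on whole extensor digitorum longus (EDL) muscles, which are mostly fast-twitch, and soleus (SOL) muscles, which hold many slow-twitch myofibers. The mice were 2 months old and drank water with 1 mg/ml doxycycline (Dox), which lasted 2.5 days in some, 5.5 days in others and 8.5 days in the rest. The mice called Cre+ were Acta1-Cre+/4Fhet and the mice called Cre- were Acta1-Cre-/4Fhet, so that both genotypes carried 1 copy of the inducible cassette of Oct4, Sox2, Klf4 and c-Myc (OSKM, or 4F) and both received Dox. Cre under the Acta1 promoter is active in myofibers, where it frees the rtTA activator that Dox switches on, and the other cells of the muscle were left without it. Each muscle, genotype and time point had 2 libraries, 24 in all, which the study describes as biologically independent samples.

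IGF-I and IGF-II are secreted growth factors that bind the IGF-I receptor, a tyrosine kinase close to the insulin receptor, and both receptors signal through the docking proteins IRS1 and IRS2 to PI3K and Akt. In skeletal muscle this pathway drives fiber growth, satellite cell proliferation and glucose uptake. The secreted IGF binding proteins hold the ligands outside the cell. Igf2 and H19 are neighbouring imprinted genes, Igf2 expressed from the paternal and H19 from the maternal chromosome, and both are abundant in the fetus and decline after birth.

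Igf2 was counted on transcript NM_010514 at chr7:142650768-142658804 on the minus strand of mm10, and H19, a non-coding RNA, on NR_130974 at chr7:142575530-142578146 on the same strand, with 72.6 kb between them. Both are hosts of a microRNA. The mature sequences are shown because the products of the 2 loci are not only a growth factor and a long RNA, and were taken from RefSeq (GRCm38.p6, the same build), written 5′ to 3′ with the seed, bases 2 to 8, in capitals. The 4 seeds differ from each other.
mmu-miR-675-5p (in H19): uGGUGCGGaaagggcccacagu
mmu-miR-675-3p (in H19): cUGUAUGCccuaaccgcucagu
mmu-miR-483-5p (in Igf2): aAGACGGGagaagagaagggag
mmu-miR-483-3p (in Igf2): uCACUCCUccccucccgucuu

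RefSeq promoter windows, 250 bases before to 50 after a start site, were found for 8 of the 10 members, with 4 windows for Igf2. Those at the start of the counted transcripts of Igf2 and Igfbp3 are shown, since these 2 genes changed together in EDL muscles. Capitals mark GGGCGG, the GC box, on either strand.
Igf2 (chr7:142658755-142659054, minus strand): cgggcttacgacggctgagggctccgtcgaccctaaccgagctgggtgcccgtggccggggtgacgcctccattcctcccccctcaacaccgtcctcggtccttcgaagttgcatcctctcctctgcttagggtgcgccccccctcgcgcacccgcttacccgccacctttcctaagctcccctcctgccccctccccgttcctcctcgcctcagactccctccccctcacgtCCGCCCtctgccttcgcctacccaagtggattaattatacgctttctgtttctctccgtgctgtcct
Igfbp3 (chr11:7213874-7214173, minus strand): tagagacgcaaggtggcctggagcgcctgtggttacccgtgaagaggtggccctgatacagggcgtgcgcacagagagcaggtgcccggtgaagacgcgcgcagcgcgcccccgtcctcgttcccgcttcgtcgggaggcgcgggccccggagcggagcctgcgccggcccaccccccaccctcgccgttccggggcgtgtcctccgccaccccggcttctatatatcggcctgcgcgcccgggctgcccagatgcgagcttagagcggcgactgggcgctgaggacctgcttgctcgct

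The Igf2 window held 1 GC box, on the opposite strand 17 bases before the start, and the Igfbp3 window held none. Of all 32851 windows of this length, 35.7% held a GC box on either strand. CACGTG, the E-box that c-Myc with Max can bind and that reads the same on both strands, was found in the windows of Irs1 and Irs2 and in 7.15% of all windows. ATGCAAAT, the octamer that Oct4 can bind, was in none of the members' windows and in 1.74% of all windows, with both strands searched.

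Total counts were between 36088781 and 54679082 per library, so that a count of 0 allows up to 0.0549 to 0.0831 CPM (counts scaled to the library total), for counting error only. Levels are given as FPKM, which scales each count to the length of the gene's exons and to the library's total. Fold changes are log2 values from edgeR's quasi-likelihood test after TMM scaling, Cre+ against Cre-, with their standard error (SE) and a Benjamini-Hochberg adjusted p over all genes tested. A gene was called when its adjusted p was below 0.05 and its log2 fold change lay beyond 0.5 in either direction. Whether the libraries of 2 groups overlapped on a single day is given as a description only. The share of all genes apart on a single day was not counted. Pou5f1, which encodes Oct4, was at 17.5 and 70.5 FPKM in Cre+ EDL libraries of 2.5 days, 76.2 and 57.7 at 8.5 days, 5.02 and 9.62 in Cre+ SOL libraries of 2.5 days and 12.2 and 6.19 at 8.5 days, and at no more than 0.0902 in Cre- libraries. At 5.5 days it was at 1.02 and 27.7 in Cre+ EDL and 0.0785 and 0.388 in Cre+ SOL libraries, and the study set all 5.5-day libraries aside as outliers. The methods of the paper name no day and give a lack of OSKM overexpression as the ground for removing samples. Fast Myh4 was higher in Cre- EDL than SOL (log2 difference 5.57) and slow Myh7 lower (-6.52), as the muscle labels require.

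The scaling matters in EDL muscles. Scaling by the total count alone, which is how FPKM is formed, raised the median of the log2 fold changes over all genes by 0.33 at 2.5 days and 0.18 at 8.5 days in EDL and by 0.15 at 2.5 days in SOL muscles, relative to TMM. Of the genes called in EDL at 2.5 days, 57.5% were higher under TMM and 87.3% under the total count. The EDL fold changes below are therefore lower than the ratios of the FPKM values beside them.

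In EDL muscles Igf2, H19 and Igfbp3 were lower in Cre+ than in Cre- mice at 2.5 days, and Igf2 and Insr at 8.5 days, while no member was called higher. In SOL muscles no member was called at any time point. Between muscles of Cre- mice, H19 and Irs2 were higher in SOL and Igfbp5 was higher in EDL.

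**Figure D1:**
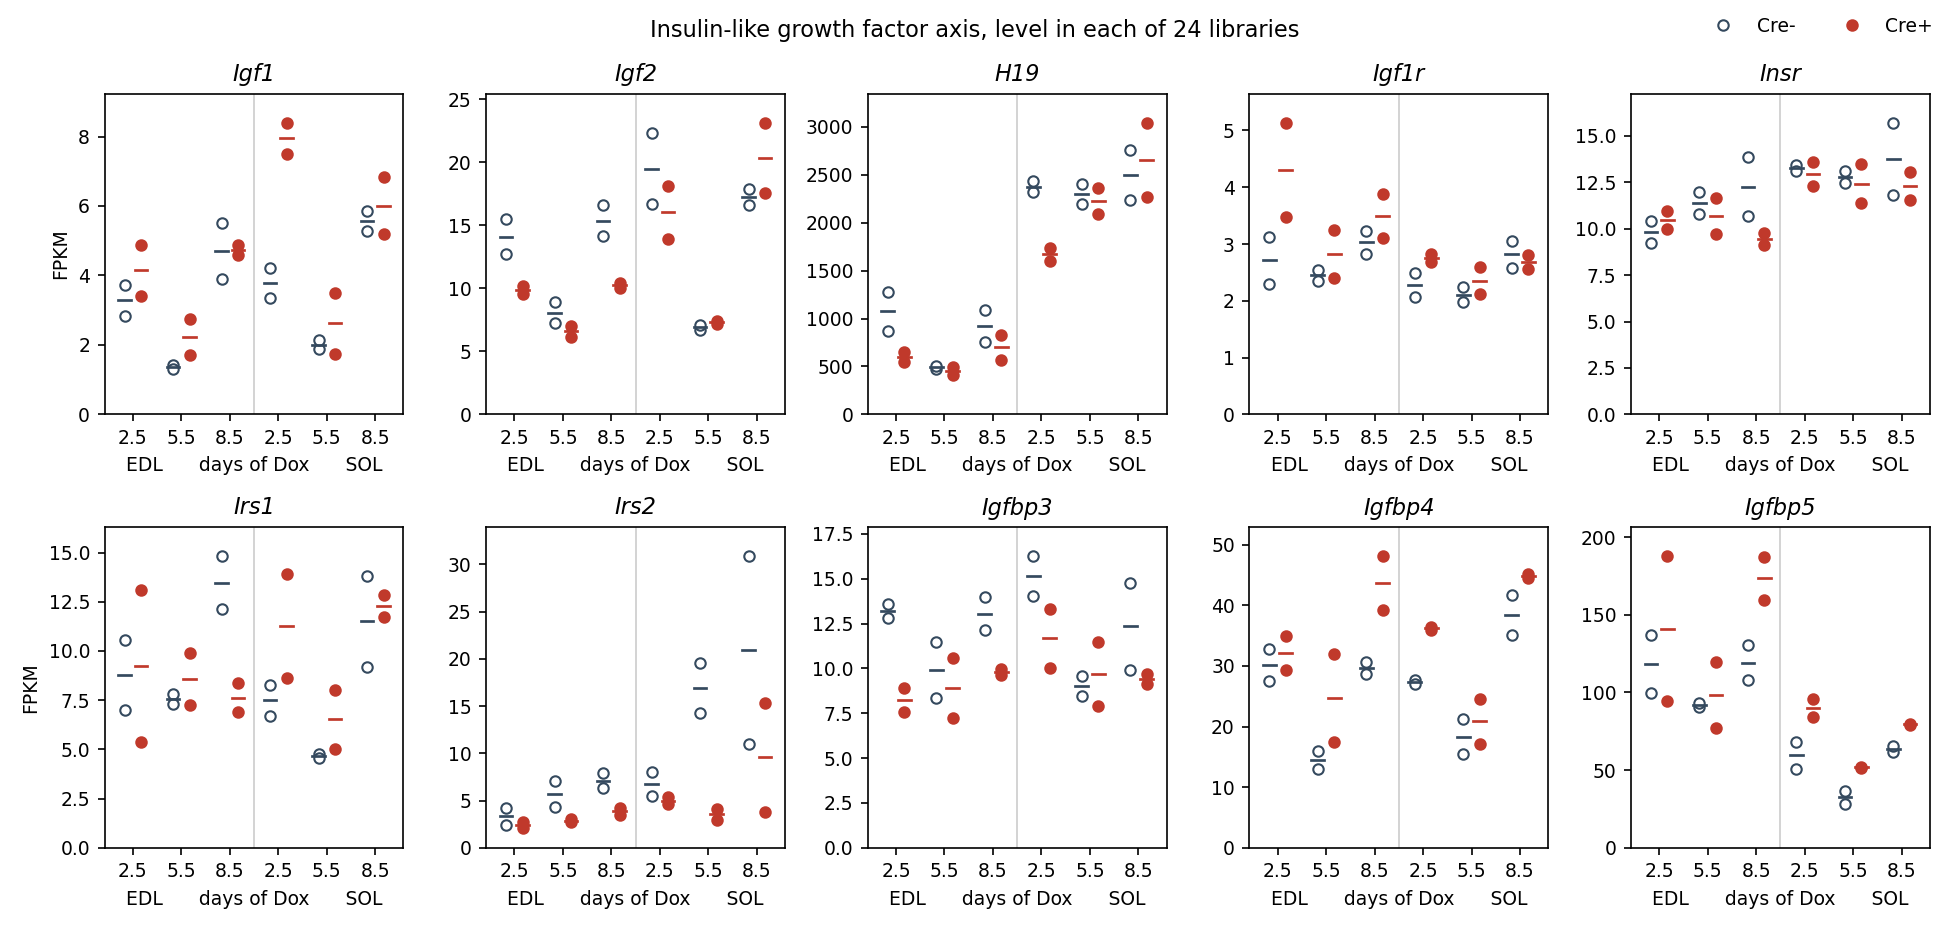
Level of each of the 10 genes in each of 24 libraries, in FPKM on a linear axis from 0, by muscle and days of Dox (open circles Cre-, filled circles Cre+, short lines the mean of 2 libraries). Igf2 in the 4 Cre+ EDL libraries of 2.5 and 8.5 days sits between 9.55 and 10.4 FPKM, below all 4 Cre- libraries, and H19 is higher in every SOL than in every EDL library.

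Igf2 was downregulated in EDL muscles. At 2.5 days it was at 9.55 and 10.2 FPKM in Cre+ and at 15.5 and 12.7 FPKM in Cre- libraries, and at 8.5 days at 10.4 and 10.1 FPKM in Cre+ and 14.2 and 16.6 FPKM in Cre- libraries. The Cre+ and Cre- libraries did not overlap on either day, and the 4 Cre+ libraries lay close together (mean 10.1 ± 0.367 FPKM, SD, n = 4) beside a mean of 14.7 ± 1.68 FPKM in the 4 Cre- libraries. The log2 fold change was -0.84 (SE 0.18, adjusted p = 0.0048) at 2.5 days and -0.77 (SE 0.18, adjusted p = 0.0138) at 8.5 days. At 2.5 days the call held without each library in turn. At 8.5 days it was lost without Cre+ replicate 1 (adjusted p = 0.111), Cre+ replicate 2 (0.0572) or Cre- replicate 2 (0.0635), with the log2 fold change between -0.89 and -0.64.

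In SOL muscles Igf2 was at 18.2 and 13.9 FPKM in Cre+ and 22.3 and 16.7 FPKM in Cre- libraries at 2.5 days, and at 23.2 and 17.6 FPKM against 17.9 and 16.6 FPKM at 8.5 days. The groups overlapped on both days by FPKM and at 8.5 days by TMM-scaled CPM, by which the Cre+ libraries of 2.5 days lay below, and the log2 fold changes, -0.44 (SE 0.18, adjusted p = 0.323) and 0.20 (SE 0.18, adjusted p = 0.973), were not called. The difference between the muscles in this change was not called at either day (-0.40 at 2.5 days, adjusted p = 0.401, and -0.97 at 8.5 days, adjusted p = 0.156). Averaged over both days, a contrast added after the data were seen, Igf2 fell by 0.80 on the log2 scale in EDL (adjusted p = 0.000413) and the muscles differed by -0.68 (SE 0.18, adjusted p = 0.0343). This difference was not called under total-count scaling (-0.53, adjusted p = 0.0750) or in 9 of 16 fits without 1 library, those without Cre+ EDL replicates 1 and 2 of 8.5 days and replicate 2 of 2.5 days, Cre- EDL replicate 1 of 2.5 and replicate 2 of 8.5 days, Cre+ SOL replicate 1 of both days and Cre- SOL replicate 2 of both days (adjusted p up to 0.0840).

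H19 was the most abundant member per length, by a wide margin. It took up 0.0939% to 0.292% of all counts in EDL libraries and 0.364% to 0.694% in SOL libraries, and its FPKM was 45.5 to 100.8 times that of Igf2 in EDL and 95.8 to 339 times in SOL libraries. At 2.5 days H19 was at 646 and 545 FPKM in Cre+ and 874 and 1280.0 FPKM in Cre- EDL libraries. At 8.5 days it was at 826 and 572 FPKM in Cre+ and 1091 and 756 FPKM in Cre- EDL libraries. The groups were apart at 2.5 days and overlapped at 8.5 days by FPKM, although not by CPM of the TMM-scaled library size. The log2 fold change was -1.19 (SE 0.26, adjusted p = 0.0050) at 2.5 days and -0.59 (SE 0.26, adjusted p = 0.150) at 8.5 days, and the difference between the days was not called. The call at 2.5 days was lost without Cre+ replicate 2 (-1.03, adjusted p = 0.0638) or Cre- replicate 2 (-0.85, adjusted p = 0.0608). Averaged over both days, H19 fell by 0.89 (SE 0.18, adjusted p = 0.00237) in EDL muscles and the call held without each of the 8 libraries in turn.

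In SOL muscles H19 was at 1740.4 and 1599 FPKM in Cre+ and 2436 and 2316 FPKM in Cre- libraries at 2.5 days. These groups did not overlap, but the log2 fold change of -0.66 (SE 0.26, adjusted p = 0.291) was called only by DESeq2 on the 4 libraries alone (-0.68, adjusted p = 0.000109). At 8.5 days the values were 3045 and 2264 FPKM against 2757 and 2240.4 FPKM, and the groups overlapped (log2 fold change 0.04, adjusted p = 1.0).

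Reads over the hairpin of miR-675 followed H19. The Mir675 row lies inside H19, so the same reads can be counted in both, and poly(A) RNA-seq does not measure the mature microRNA. In EDL libraries of 2.5 days Mir675 had 715 and 886 counts in Cre+ and 1244 and 1865 counts in Cre- mice. SOL libraries of 2.5 days had 1754 and 2460 counts in Cre+ and 2858 and 2885 counts in Cre- mice. Mir483, inside Igf2, had 1 count in 1 library and 0 in the other 23.

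Igf1, the ligand that muscle makes locally as well as receives from the liver, did not pass the test in EDL muscles. It was at 4.89 and 3.42 FPKM in Cre+ and 2.84 and 3.73 FPKM in Cre- libraries at 2.5 days, and at 4.58 and 4.88 FPKM against 5.52 and 3.90 FPKM at 8.5 days, with overlap on both days. In SOL muscles at 2.5 days the groups stood apart, at 8.40 and 7.49 FPKM in Cre+ and 3.36 and 4.20 FPKM in Cre- libraries. The log2 fold change there was 0.92 (SE 0.23, adjusted p = 0.124) and was not called. DESeq2 on the 16 libraries of 2.5 and 8.5 days called it (0.90, adjusted p = 0.0121), as did edgeR (adjusted p = 0.0451) and DESeq2 (adjusted p = 1.5e-05) on the 4 libraries alone. The change in EDL minus that in SOL was -0.91 (SE 0.33, adjusted p = 0.132) and was called when libraries with the same number in the 2 muscles were paired (-0.93, SE 0.23, adjusted p = 0.0420). Paired in this way, the mean over both days was called too (-0.57, adjusted p = 0.0443). Without Cre+ EDL replicate 1 of 2.5 days the unpaired difference was called as well (-1.24, adjusted p = 0.0315, at 2.5 days and -0.75, adjusted p = 0.0395, over both days). At 8.5 days SOL libraries overlapped, at 5.18 and 6.84 FPKM in Cre+ and 5.27 and 5.87 FPKM in Cre- mice.

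Fibroblasts and fibro-adipogenic cells also make Igf1. By edgeR 0 of their 12 markers were called in SOL at 2.5 days, with 5 at an unadjusted p under 0.05 and 1 called by DESeq2. Their summed level at 2.5 days in SOL was 1601 to 1721 FPKM in Cre+ and 1109 to 1389 FPKM in Cre- libraries, and the part of these cells in the Igf1 values was not tested. In bulk muscle, more cells of a type and more RNA per cell cannot be told apart.

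Of the receptor genes, Insr was called in 1 comparison and Igf1r in none. Igf1r, which encodes the IGF-I receptor, was at 3.47 and 5.14 FPKM in Cre+ and 3.13 and 2.30 FPKM in Cre- EDL libraries at 2.5 days, without overlap by FPKM and with overlap by TMM-scaled CPM. Its log2 fold change was 0.33 (SE 0.18, adjusted p = 0.190) under TMM scaling and 0.67 (adjusted p = 0.0213, called) under the total count, beside a shift of 0.33 in the median gene. In the 16 libraries of 2.5 and 8.5 days Igf1r stayed between 2.06 and 5.14 FPKM, and its log2 fold change in the other comparisons of these days lay between -0.11 and 0.12.

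Insr, which encodes the insulin receptor, was at 9.11 and 9.76 FPKM in Cre+ and 13.8 and 10.7 FPKM in Cre- EDL libraries at 8.5 days, without overlap. Its log2 fold change was -0.55 (SE 0.15, adjusted p = 0.0245), close to the threshold of 0.5. The call was lost under total-count scaling (-0.38, adjusted p = 0.120), with the 4 libraries of the comparison alone (edgeR adjusted p = 0.137, DESeq2 0.0761), without Cre+ replicate 1 (adjusted p = 0.209) and without Cre- replicate 1 (adjusted p = 0.192). At 2.5 days Insr was at 10.0001 and 10.9 FPKM in Cre+ and 10.4 and 9.26 FPKM in Cre- EDL libraries, which overlapped by FPKM and not by TMM-scaled CPM, where Cre+ was lower (-0.24, SE 0.15, adjusted p = 0.251).

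Irs1 and Irs2 encode the docking proteins that link the receptors to PI3K, and both varied widely between libraries of 1 group. Irs1 in EDL at 8.5 days was at 8.35 and 6.92 FPKM in Cre+ and 12.1 and 14.8 FPKM in Cre- libraries. These did not overlap, and the log2 fold change of -1.004 (SE 0.37, adjusted p = 0.0831) was not called, whereas a fit with all 24 libraries (adjusted p = 0.0476), DESeq2 (0.0233) and edgeR on the 4 libraries (0.0258) called it. At 2.5 days the Cre+ EDL libraries differed from each other, with 13.1 FPKM in replicate 1 and 5.38 in replicate 2, and lay on both sides of the Cre- libraries at 7.01 and 10.6 FPKM. Without Cre+ replicate 1, the one with less Pou5f1, Irs1 was called lower (-1.09, adjusted p = 0.0267), as was Igfbp5 (-0.70, adjusted p = 0.0400), and Igf1r was called higher (0.55, adjusted p = 0.0454), which brought the number of members called from 3 to 6. Without the same library the change in EDL minus that in SOL was called for Irs1 (-1.53, adjusted p = 0.0346) and Igfbp5 (-1.16, adjusted p = 0.0287) at 2.5 days, and for Irs1 over both days (-1.301, adjusted p = 0.00857). In SOL muscles Irs1 was at 13.9 and 8.65 FPKM in Cre+ and 6.71 and 8.27 FPKM in Cre- libraries at 2.5 days (0.44, adjusted p = 0.645). With the muscles paired, its change averaged over both days differed between EDL and SOL by -0.93 (SE 0.17, adjusted p = 0.00862), against -0.88 (SE 0.36, adjusted p = 0.147) unpaired, and Igf2 stayed called.

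Irs2 had a negative log2 fold change in all 6 comparisons of muscle and day, and none was called. In EDL muscles it was at 2.70 and 2.07 FPKM in Cre+ and 4.18 and 2.47 FPKM in Cre- libraries at 2.5 days (-0.80, SE 0.54, adjusted p = 0.299). At 8.5 days it was at 4.25 and 3.48 FPKM in Cre+ and 6.29 and 7.96 FPKM in Cre- libraries (-1.07, SE 0.53, adjusted p = 0.202), without overlap, and the 4 libraries alone gave a call (edgeR adjusted p = 0.0245, DESeq2 0.000189). The largest of these values, in SOL at 5.5 days, was -2.31 (SE 0.51, adjusted p = 1.0), from 2.97 and 4.14 FPKM in Cre+ and 19.5 and 14.3 FPKM in Cre- libraries. In that comparison edgeR called no gene among the 15478 tested. Pou5f1 in its Cre+ libraries had 4 and 22 counts, against 1 and 0 counts in its Cre- libraries. DESeq2 on the 4 libraries alone called Irs2 there (-2.31, adjusted p = 3.9e-22), as 1 of 34 genes called among 13882. It also called Irs2 in EDL at 5.5 days (-1.10, adjusted p = 0.00285). In SOL libraries of 8.5 days Irs2 ranged from 3.79 to 15.4 FPKM in Cre+ and from 11.0 to 30.9 FPKM in Cre- mice, a spread within each group as wide as the gap between them. Irs2 overlaps 9530052E02Rik on the opposite strand, and the libraries are labelled as stranded but the strand setting of the counting is not given in the sources used here.

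Of the binding proteins, Igfbp3 was lower in Cre+ EDL muscles. It was at 7.57 and 8.90 FPKM in Cre+ and 13.6 and 12.8 FPKM in Cre- libraries at 2.5 days, and at 9.98 and 9.65 FPKM against 12.1 and 14.0 FPKM at 8.5 days. The groups did not overlap on either day. The log2 fold change was -1.01 (SE 0.20, adjusted p = 0.00237) at 2.5 days, where the call held without each library in turn, and -0.59 (SE 0.20, adjusted p = 0.0604) at 8.5 days, where DESeq2 called it (adjusted p = 0.0281). In SOL muscles Igfbp3 was at 10.01 and 13.3 FPKM in Cre+ and 14.0 and 16.3 FPKM in Cre- libraries at 2.5 days (-0.53, SE 0.20, adjusted p = 0.265), and at 9.11 and 9.71 FPKM against 14.8 and 9.91 FPKM at 8.5 days (-0.44, SE 0.20, adjusted p = 0.730). By FPKM the Cre+ SOL libraries lay below the Cre- libraries on both days, as they did for 4.17% of all genes. By TMM-scaled CPM they lay below at 2.5 days and overlapped at 8.5 days. The mean of both SOL days was -0.48 (adjusted p = 0.107), and -0.63 without Cre- replicate 2 of 8.5 days. The difference between the muscles in the change was not called (-0.49 at 2.5 days, adjusted p = 0.342, and -0.16 at 8.5 days, adjusted p = 0.903).

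Igfbp5 and Igfbp4 were the most abundant protein-coding members per length. Igfbp5, a binding protein of muscle and connective tissue, was at 188 and 94.3 FPKM in Cre+ and 99.7 and 137 FPKM in Cre- EDL libraries at 2.5 days, and at 187 and 160 FPKM against 108 and 130 FPKM at 8.5 days. The first pair of groups overlapped and the second did not, and neither was called (log2 fold change -0.06, adjusted p = 0.888, and 0.36, adjusted p = 0.434). In SOL muscles the Cre+ libraries were above the Cre- libraries on both days, by FPKM and by TMM-scaled CPM. At 2.5 days they were at 84.1 and 96.1 against 51.0 and 68.0 FPKM. At 8.5 days they were at 79.3 and 79.6 against 61.8 and 65.7 FPKM. Again neither change was called (0.45, adjusted p = 0.523, and 0.28, adjusted p = 0.980). Of all genes tested, 14.1% lay above on both SOL days by FPKM and 8.94% by TMM-scaled CPM.

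Igfbp4 was at 35.0 and 29.4 FPKM in Cre+ and 27.6 and 32.8 FPKM in Cre- EDL libraries at 2.5 days. At 8.5 days it was at 48.1 and 39.3 FPKM in Cre+ and 28.6 and 30.6 FPKM in Cre- libraries, which did not overlap. The log2 fold change was -0.24 (SE 0.15, adjusted p = 0.275) at 2.5 days and 0.38 (SE 0.15, adjusted p = 0.116) at 8.5 days, and under total-count scaling the latter was called (0.56, adjusted p = 0.0158). The fibroblast lineage also expresses Igfbp4. Its markers summed to 2911 to 3909 FPKM in Cre+ and 2254 to 2586 FPKM in Cre- EDL libraries at 8.5 days. This sum is on the total-count scale, and Gsn is its most abundant marker. Of the 12 markers edgeR and DESeq2 called 0 there, and 0 had an unadjusted p under 0.05. The part of these cells in the Igfbp4 values was not tested. In SOL muscles Igfbp4 was at 36.4 and 35.9 FPKM in Cre+ and 27.7 and 27.1 FPKM in Cre- libraries at 2.5 days. At 8.5 days it was at 45.2 and 44.4 against 41.7 and 35.1 FPKM. The SOL groups were apart on both days by FPKM and overlapped at 8.5 days by TMM-scaled CPM. Neither SOL change was called (0.25, adjusted p = 0.516, and 0.18, adjusted p = 0.959).

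**Figure D2:**
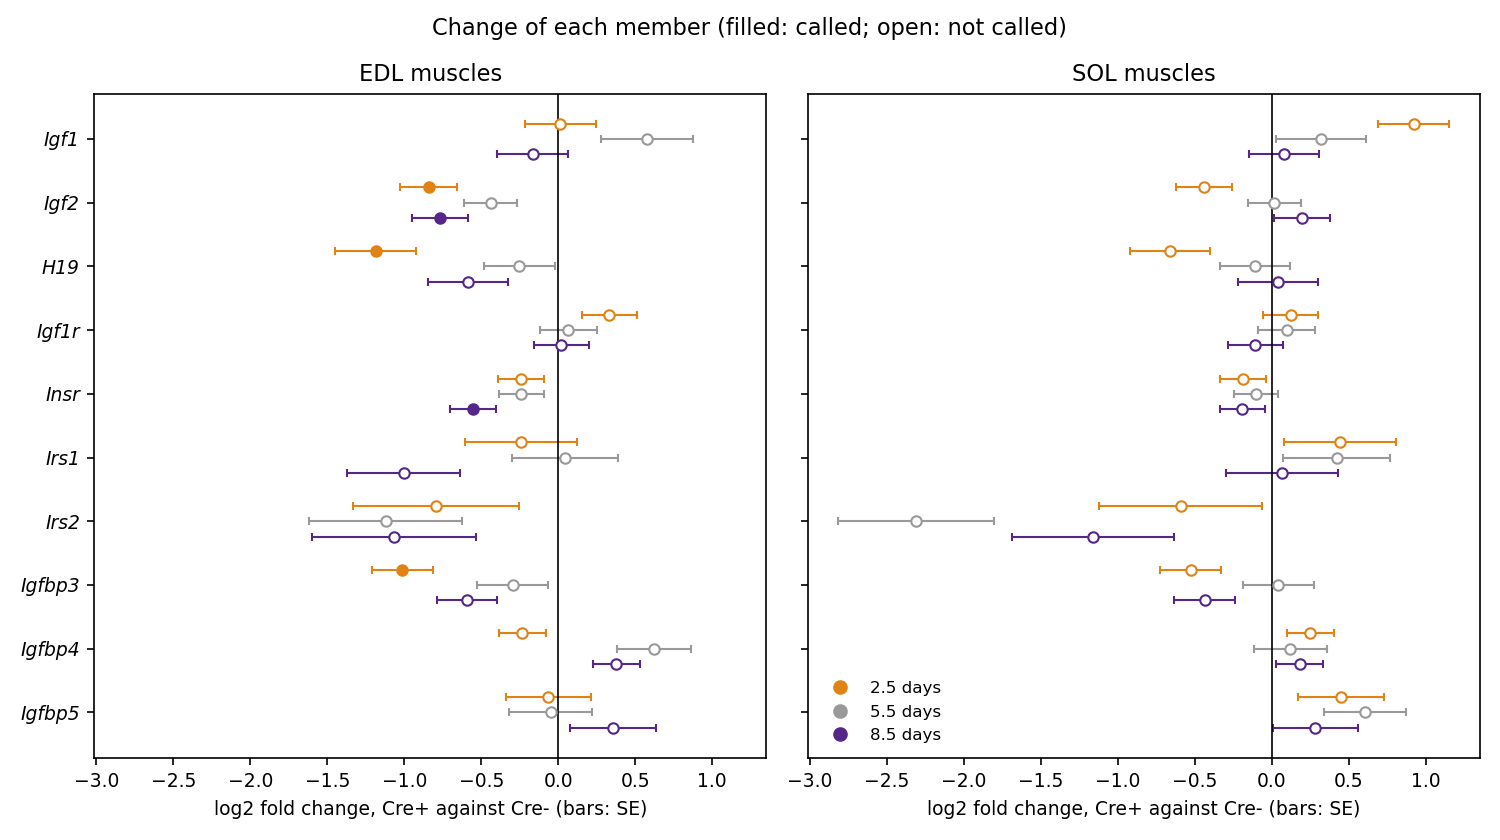
Log2 fold change of each gene, Cre+ against Cre-, with its standard error, in EDL (left) and SOL muscles (right) at 2.5, 5.5 and 8.5 days of Dox (filled where called, open where not). The called values are those of Igf2, H19 and Igfbp3 at 2.5 days and of Igf2 and Insr at 8.5 days, all in EDL muscles and all below 0.

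The counts of members called are given beside those of all genes tested. In EDL at 2.5 days 3 of 10 members were called, as were 24% of all genes tested. All 3 were lower, against 10.2% of all genes. At 8.5 days 2 of 10 were called, both lower, against 14.1% of all genes called and 6.5% called lower. The median log2 fold change of the 10 members was -0.24 at 2.5 days and -0.57 at 8.5 days, beside -0.05 and -0.02 for all genes. Averaged over both days, 3 members were called in EDL (Igf2, H19 and Igfbp3), against 24.1% of all genes. By FPKM, Igf2 and Igfbp3 had every Cre+ EDL library below every Cre- library of its day on both days, as had 8.29% of all genes. By CPM of the TMM-scaled library size, the scale of the fold changes, there were 5 such members (Igf2, H19, Insr, Irs2 and Igfbp3), beside 19.6% of all genes. On either scale 0 members had every Cre+ EDL library above, beside 32.3% of all genes by FPKM and 18.1% by TMM-scaled CPM.

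In SOL muscles 0 members were called at 2.5 days and 0 at 8.5 days, where edgeR called 0.384% and 0.631% of all genes. At an unadjusted p under 0.05 there were 4 members at 2.5 days and 2 at 8.5 days, and DESeq2 called 1 and 0. The mean over both SOL days gave 0 members (3 at an unadjusted p under 0.05, 0 by DESeq2) beside 1.47% of all genes. For the difference between the muscles, with libraries unpaired, edgeR called 0 members at 2.5 days and 0 at 8.5 days, beside 4.25% and 0.592% of all genes. At an unadjusted p under 0.05 there were 2 and 1 members, and DESeq2 called 0 and 1. The mean of this difference over both days, also unpaired, gave 1 member by edgeR, Igf2, beside 8.96% of all genes. The change at 8.5 days minus that at 2.5 days was called for 0 members and 0.0% of all genes in each muscle, with 1 member in EDL and 2 in SOL at an unadjusted p under 0.05 and 0 by DESeq2 in both.

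At 5.5 days 0 members were called in EDL and 0 in SOL, beside 0.304% and 0.0% of all genes, with 3 and 2 members at an unadjusted p under 0.05 and 0 by DESeq2 on all libraries. The ligands were low in these libraries in both genotypes, and so were other members in Cre- libraries. In Cre- EDL muscles Igf1 was at 1.41 and 1.298 FPKM and Igf2 at 8.90 and 7.26 FPKM, and in Cre- SOL muscles Igf1 was at 1.88 and 2.13 FPKM and Igf2 at 6.72 and 7.11 FPKM. Each of these values lay below every Cre- library of the same muscle at 2.5 and 8.5 days. The share of all genes that did so was not counted, so this is a description only. Among other members of Cre- libraries, Igfbp4 was at 15.97 and 13.1 FPKM in EDL and 15.5 and 21.2 FPKM in SOL. Igfbp5 was at 90.9 and 92.9 FPKM in EDL and 36.7 and 28.5 FPKM in SOL. Igfbp3 was at 11.5 and 8.37 FPKM in EDL and 9.60 and 8.49 FPKM in SOL. These too lay below every Cre- library of their muscle on the other days, as did H19 in EDL only and Irs1 in SOL only. Igf1r, Insr and Irs2 overlapped the other days in both muscles. The summed fibroblast markers of Cre- libraries were also lowest at 5.5 days, at 996 to 1092 FPKM in EDL and 932 to 1011 FPKM in SOL, and their part was not tested. The day and the handling of these libraries cannot be told apart.

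The 2 muscles differed in 3 members without OSKM. In the 8 Cre- libraries of 2.5 and 8.5 days, H19 was lower in EDL (1000.1 ± 233 FPKM, SD, n = 4) than in SOL (2437 ± 228 FPKM, SD, n = 4), a log2 difference of -1.20 (SE 0.19, adjusted p = 0.000323). Igfbp5 was higher in EDL (119 ± 17.7 FPKM, SD, n = 4) than in SOL (61.6 ± 7.52 FPKM, SD, n = 4), by 1.04 (SE 0.20, adjusted p = 0.00147). For both genes every EDL library lay apart from every SOL library, and the calls held without each library in turn. The share of all genes that lay apart in this way was not counted. Irs2 was lower in EDL (-1.19, SE 0.38, adjusted p = 0.0288), but the call was lost in 4 of 8 fits without 1 library, those without Cre- EDL replicate 2 of 2.5 days (adjusted p = 0.104) or replicate 1 of 8.5 days (0.0943), or Cre- SOL replicate 1 of 2.5 days (0.0983) or replicate 2 of 8.5 days (-0.76, adjusted p = 0.151). Of all genes, 21.9% were called between the muscles, so 3 of 10 is near that share. Markers of other cells differed between the muscles in the same libraries. Higher in SOL were 7 of 8 adipocyte markers and 5 of 8 satellite cell markers, and higher in EDL were 4 of 12 fibroblast and 6 of 8 Schwann cell markers. The summed adipocyte markers were at 13.7 to 55.5 FPKM in Cre- EDL and 37.1 to 449 FPKM in Cre- SOL libraries of 2.5 and 8.5 days. The summed endothelial markers of the same libraries were at 390 to 465 FPKM in EDL and 538 to 825 FPKM in SOL. The part of these cell types in the differences of H19, Irs2 and Igfbp5 was not tested.

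**Figure D3:**
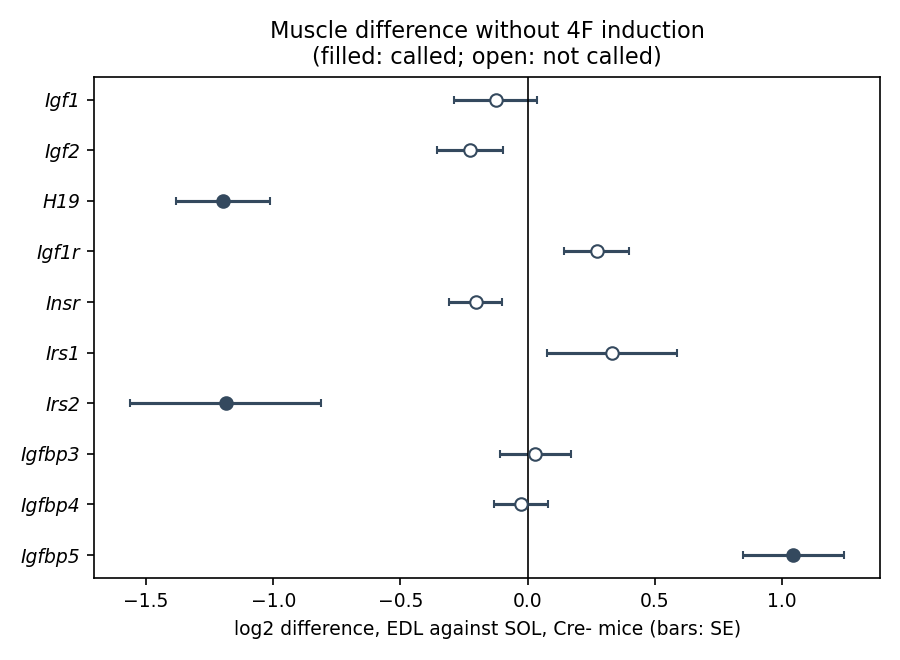
Log2 difference of each gene between EDL and SOL muscles in Cre- mice, with its standard error, from the libraries of 2.5 and 8.5 days (filled where called). H19 at -1.20 and Irs2 at -1.19 lie on the SOL side and Igfbp5 at 1.04 on the EDL side, and the other 7 genes lie between -0.23 and 0.33.

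By level in the 6 Cre- EDL libraries the order was H19 (median 815 FPKM), Igfbp5 (104), Igfbp4 (28.1), Igf2 (13.4), Igfbp3 (12.5), Insr (10.7), Irs1 (9.17), Irs2 (5.29), Igf1 (3.29) and Igf1r (2.69). H19 and Igfbp5 were each clear of the next gene, and from Igfbp4 down each gene's range overlapped that of the next. In Cre- SOL libraries H19 led (median 2362 FPKM), clear of Igfbp5 (56.4), and from Igfbp5 down all neighbours overlapped, with Igf1r last again (2.36).

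The genes whose profile over the 24 libraries was closest to each member were found by the root mean square difference of centred log2 CPM, as a description. H19 was closest to Mir675 (0.0850), which shares its reads, and then to Bcam (0.33), beside a standard deviation of H19 itself of 0.96. Igf1 was closest to Dnm3os (0.277) and Fam198b (0.278), with an own standard deviation of 0.66. Igfbp4 was closest to Selenon and C1qtnf5, Igfbp5 to Sema4d and Dusp3, and Insr to Rap1gds1. For Igf2, Igf1r, Irs1, Irs2 and Igfbp3 no gene came within 0.5 of the member's own standard deviation.

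For further genes of the axis the counts in EDL are to be read beside the 24% of all genes called at 2.5 days and the 14.1% called at 8.5 days. Of 14 further ligand-binding and receptor genes, 10 could be tested, and 0 were called between genotypes in EDL or SOL at any single time point by edgeR. Averaged over both days edgeR called Igf2os lower in EDL (-0.79, adjusted p = 0.0412) and Igfals, which encodes the acid-labile subunit of circulating IGF complexes, in SOL, where its log2 fold changes were 1.71 at 2.5 days and 1.16 at 8.5 days. In EDL at 2.5 days 2 had an unadjusted p under 0.05 and DESeq2 called 2, and in SOL at 2.5 days 2 had such a p and DESeq2 called 1. At 8.5 days 1 in EDL and 2 in SOL had such a p and DESeq2 called 0 in both muscles. Igf2r, the receptor that clears IGF-II, was at 14.4 to 16.3 FPKM in Cre+ and 11.0 to 11.6 FPKM in Cre- EDL libraries at 2.5 days (log2 fold change 0.11, adjusted p = 0.628). Igfbp6, which prefers IGF-II, and Igfbp7 had log2 fold changes of -0.58 (adjusted p = 0.0610) and -0.58 (adjusted p = 0.0642) in EDL at 2.5 days. Between muscles of Cre- mice 4 of these 10 were called. Igfbp6 (0.67) and Igf2bp3 (3.09), an RNA-binding protein of Igf2 mRNA, were higher in EDL, and Igf2r (-0.61) and Igfbp2 (-2.08) were higher in SOL. Of 5 tested proteases and inhibitors that act on the binding proteins, Adamts1 was lower in EDL at 2.5 days (-0.88, SE 0.25, adjusted p = 0.0199), the only one of the 5 that edgeR called between genotypes on a single day. Averaged over both days, Stc1 (-0.89, adjusted p = 0.0236) and Stc2 (-0.57, adjusted p = 0.0139), inhibitors of the pappalysin proteases, were called lower in EDL too, and are named after their values were seen.

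Igfbp1, a binding protein made mainly by liver, had 4 and 14 counts in Cre- SOL libraries of 8.5 days and 0 to 2 in the other 22 libraries. In the same comparison 8 of 10 liver transcripts were lower in Cre+, with summed levels of 30.9 to 33.0 FPKM in Cre+ and 86.7 to 163 FPKM in Cre- libraries, Alb among them at 6.40 and 43.8 FPKM in Cre- mice. The liver is the main source of circulating IGF-I, and the part of these transcripts in the SOL values of 8.5 days was not tested. The log2 fold change of Igf1 in that comparison was 0.08 (SE 0.23, adjusted p = 0.999).

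Among adaptors and negative regulators of the receptors, 2 of 23 tested genes were higher and 1 lower in EDL at 2.5 days, and 1 was higher and 2 lower at 8.5 days. Shc2, an adaptor better known from neurons, went from 0.790 and 1.13 FPKM in Cre- to 20.9 and 63.0 FPKM in Cre+ libraries at 2.5 days (log2 fold change 5.10, SE 0.45, adjusted p = 1.63e-05). At 8.5 days it was at 1.04 to 1.096 FPKM in Cre- and 21.5 to 22.7 FPKM in Cre+ libraries (4.19, SE 0.44, adjusted p = 6.4e-05). The rise at 2.5 days was larger in EDL than in SOL muscles by 3.85 (SE 0.58, adjusted p = 0.00503). Fbxo40, the muscle ubiquitin ligase that targets IRS1, was lower in EDL on both days (-1.09, adjusted p = 0.00233, and -0.68, adjusted p = 0.0446). The other calls at these days, named after their values were seen, were Socs2 (0.97, higher at 2.5 days) and Sos2 (-0.53, lower at 8.5 days).

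Of 30 genes of PI3K, Akt and mTORC1 signaling, 5 were higher and 1 lower in EDL at 2.5 days, and 5 were higher and 2 lower at 8.5 days. Akt1, an Akt kinase, rose by 0.59 and 0.79 on the log2 scale and Eif4ebp2, an inhibitor of cap-dependent translation, by 0.82 and 0.70. Ddit4, a stress-induced inhibitor of mTORC1, fell by 0.98 and 0.88. In SOL muscles edgeR called 0 of the 30 genes at 2.5 days (7 at an unadjusted p under 0.05, 1 by DESeq2) and 0 at 8.5 days (0 and 0), and of the 23 adaptors 0 at 2.5 days (3 and 2) and 0 at 8.5 days (1 and 0).

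Of the genes of insulin-stimulated glucose uptake, Slc2a4 and Hk2 fell in EDL on both days. In EDL at 2.5 days 3 of 12 were lower and 0 higher, and at 8.5 days 2 were lower and 1 higher. Slc2a4, the insulin-responsive glucose transporter GLUT4, was at 130 and 161 FPKM in Cre+ and 283 and 299 FPKM in Cre- libraries at 2.5 days, without overlap (-1.32, SE 0.18, adjusted p = 0.000289), and fell by 0.93 (SE 0.18, adjusted p = 0.00472) at 8.5 days. Hk2, the muscle hexokinase, was at 39.8 and 42.0 FPKM in Cre+ and 90.0 and 91.2 FPKM in Cre- libraries at 2.5 days (-1.48, SE 0.17, adjusted p = 8.87e-05), and fell by 0.67 at 8.5 days. The changes at 2.5 days differed between the muscles for Slc2a4 (-1.07, adjusted p = 0.0378) and Hk2 (-1.001, adjusted p = 0.0347). In SOL muscles 1 of the 12 was called, Tbc1d1, higher at 8.5 days (0.91, adjusted p = 0.0167), as it was in EDL (0.88, adjusted p = 0.00218). Abundant myofiber transcripts fell in the same libraries. In EDL, 6 of 13 myofiber genes were lower at 2.5 days and 4 at 8.5 days, with summed levels of 54050 to 64894 FPKM in Cre+ and 91988 to 99677 FPKM in Cre- libraries at 2.5 days, and the part of this fall in the values of other myofiber genes was not tested.

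**Figure D4:**
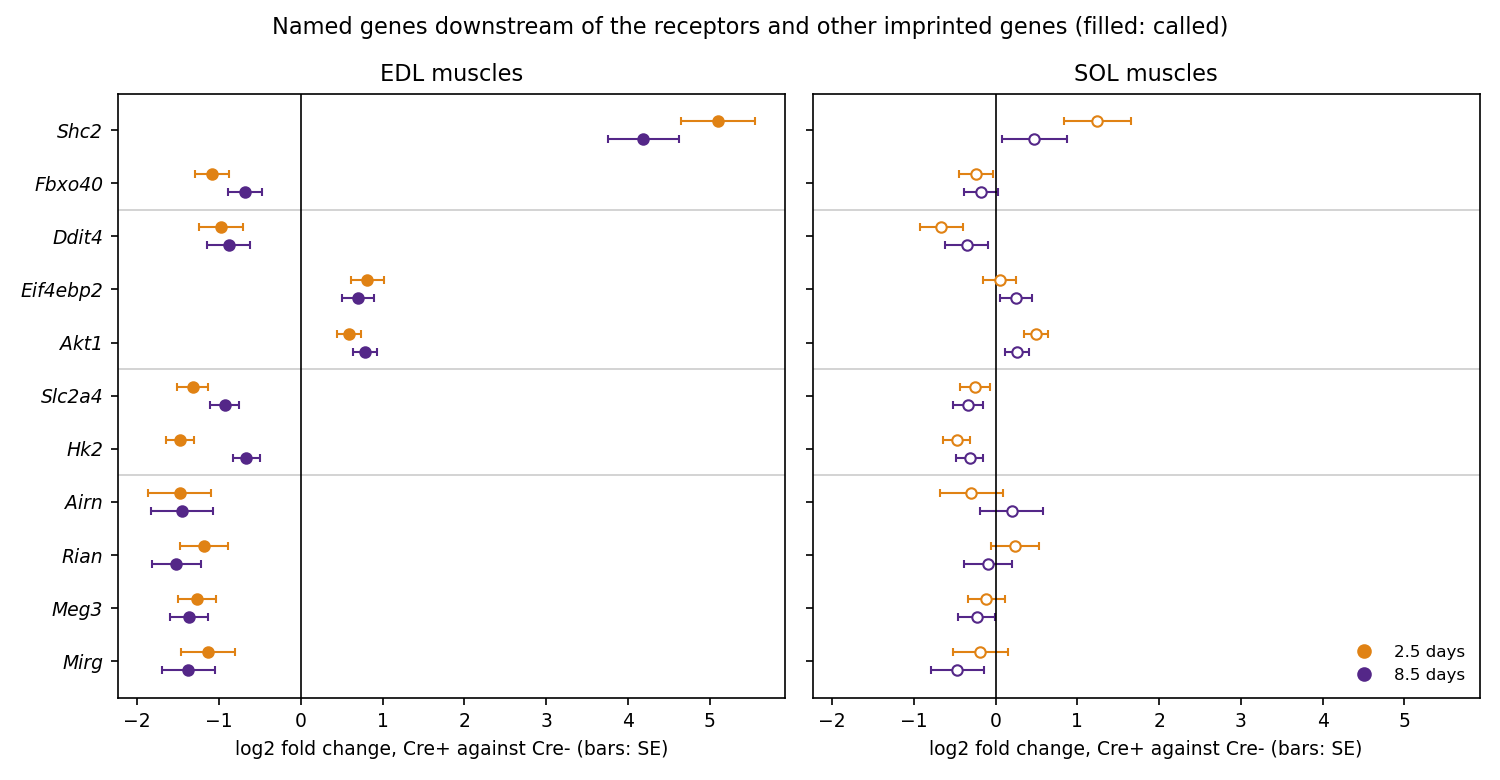
Log2 fold change, Cre+ against Cre-, with its standard error, of 11 named genes of the receptor adaptors, PI3K and Akt signaling, glucose uptake and other imprinted loci (from top to bottom, parted by grey lines) in EDL (left) and SOL muscles (right) at 2.5 and 8.5 days (filled where called). The genes were chosen for being called in EDL on both days, so the filled points in EDL follow from the choice, and open points in SOL do not show a difference between the muscles.

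Of 18 other imprinted genes tested, 4 were lower and 3 higher in EDL at 2.5 days, and 4 were lower and 0 higher at 8.5 days. The 4 lower ones were Meg3, Rian and Mirg, maternally expressed non-coding RNAs of 1 cluster, and Airn, the non-coding RNA opposite Igf2r. Meg3 was at 24.6 and 34.6 FPKM in Cre+ and 51.8 and 62.4 FPKM in Cre- libraries at 2.5 days (-1.27, SE 0.23, adjusted p = 0.00147) and fell by 1.36 (SE 0.23, adjusted p = 0.00207) at 8.5 days. Rian fell by 1.19 and 1.52, Mirg by 1.13 and 1.38, and Airn, with 33 to 111 counts per EDL library of 2.5 days, by 1.48 and 1.45. Those called higher at 2.5 days were Mest (1.19), Slc38a4 (0.71) and Peg10 (5.08), which are named after their values were seen. In Cre- mice Meg3, Rian and Mirg were higher in EDL than in SOL muscles (0.90, 1.45 and 0.83), while H19 was lower. In SOL muscles edgeR called 0 of the 18 genes at 2.5 days (2 at an unadjusted p under 0.05) and 0 at 8.5 days (1 at such a p), and DESeq2 called 0 on both days. Averaged over both days the changes of Meg3 (-1.15, adjusted p = 0.00956) and Rian (-1.43, adjusted p = 0.0110) differed between the muscles.

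Igf2 and H19 are high in developing muscle, and markers of developing or regenerating muscle are given for that reason. Of 12 tested in EDL, 1 was higher and 2 lower at 2.5 days and 1 was higher and 1 lower at 8.5 days. Ncam1, an adhesion molecule of immature and denervated fibers, rose by 3.44 and 2.07 on the log2 scale, and Actc1, the fetal and cardiac actin, fell by 2.52 and 3.35.

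Markers of other cells of the muscle are given because ligands and binding proteins are also made outside myofibers. In EDL at 2.5 days, where Igf2, H19 and Igfbp3 were lower, 6 of 10 endothelial markers were lower too, with Ptprb at -0.70 (SE 0.13, adjusted p = 0.00152). Of all genes tested, 10.2% were called lower there. The summed level of the endothelial markers was 416 to 445 FPKM in Cre+ and 439 to 460 FPKM in Cre- libraries, with overlap. At 8.5 days 1 of the 10 endothelial markers was lower, Ptprb at -0.61, beside 6.5% of all genes. The sums overlapped on that day too (395 to 476 against 390 to 465 FPKM). Among 8 pericyte and smooth muscle markers 3 were lower and 1 higher at 2.5 days, with sums of 190 to 190.4 FPKM in Cre+ and 211 to 214 FPKM in Cre- libraries. The most abundant endothelial marker, Fabp4, had a log2 fold change of -0.29 (adjusted p = 0.406) at 2.5 days. Of the fibroblast (12), tendon (8), macrophage (12), adipocyte (8) and Schwann cell (8) markers edgeR called 0 in EDL on these days. At 2.5 days the fibroblast and macrophage lists had 1 marker each and the Schwann cell list 3 at an unadjusted p under 0.05, at 8.5 days the Schwann cell list had 2, and DESeq2 called 2 and 1 Schwann cell markers on these days and 0 of the others. Of 10 liver transcripts edgeR called 4 lower in EDL at 8.5 days and DESeq2 called 5, with sums of 16.3 to 19.7 FPKM in Cre+ and 17.6 to 21.7 FPKM in Cre- libraries. No endothelial, fibroblast or myofiber marker was at 3 counts or fewer. In EDL 2 of 8 satellite cell markers, Itga7 and Sdc4, were called higher on both days, and edgeR called no other marker of that list. At an unadjusted p under 0.05 there were 4 at 2.5 days and 3 at 8.5 days. The study describes Itga7 as a protein that links myofibers to the basal lamina. The part of these cell types in the values of Igf2, H19, Igfbp3 and Insr was not tested.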

How the data were processed

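Poly(A) RNA of whole EDL and SOL muscles was sequenced in 24 libraries (12 groups of 2). The authors aligned reads to mm10 (GRCm38) with STAR 2.5.3a, after FastQC 0.11.2, and counted them per gene with HOMER; the deposited values are raw whole-number counts without normalization. Here FPKM was the count divided by exon length and total count. Tests used edgeR 4.0.16 in R 4.3.3 (TMM, minimum count 10, quasi-likelihood, Benjamini-Hochberg), with 16 libraries of 2.5 and 8.5 days in 8 groups (15372 genes) and, for 5.5 days, all 24 libraries (15478 genes). DESeq2 1.42.0 was an alternative, beside other scalings, filters and library sets, a block on the replicate number, and fits without 1 library. Contrasts averaging both days were added after the data were seen. With 2 against 2 libraries an exact permutation test cannot go below 0.333, so p-values come from these fits. On simulated data, the EDL 2.5-day test recovered 55% of 200 genes changed 2-fold, and the muscle difference 12%. The simulated set held 15107 genes, all with the same dispersion, so these shares need not hold for the real tests.

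Members and gene lists were chosen with earlier results of these data known. Named were all members, up to 4 genes per list called in 1 direction in EDL on both days at 1 FPKM or more on average, the OSKM genes, the most abundant markers, and up to 2 most similar genes per member. The values of 1 gene that the rule names are not reported here. Mymk and Mymx of the muscle list had no row under these symbols. Pairing was checked by correlating deviations from group means over 15478 genes. Same-numbered EDL and SOL libraries gave r of 0.173 to 0.445 in all 6 sets and were paired in an alternative fit only. The main fits had no block, and the labels do not say that these libraries share a mouse. Same-numbered Cre+ and Cre- libraries gave -0.169 to 0.0578 and were not taken as paired.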

Additional observations from a re-analysis of the deposited data

Results flagged for a closer look

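Irs2 in replicate 1 of Cre+ SOL muscles at 8.5 days stood apart at 15.4 FPKM, while the other 3 Cre+ SOL libraries of 2.5 and 8.5 days were between 3.79 and 5.34 FPKM, so that the gap made up 0.866 of the range. Of 40 sets of 4 libraries examined in this way 1 had such a library, and chance marks about 5% of sets. The change of Igf2, averaged over 2.5 and 8.5 days, differed between EDL and SOL muscles by -0.68 on the log2 scale in edgeR's test of the difference itself (adjusted p = 0.0343), a contrast added after the data were seen. This difference was not called at 2.5 or 8.5 days alone or under total-count scaling. It stayed called in only 7 of 16 fits that left out a library.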

How the results depend on the processing

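Of 2100 recomputed changes of members, 2040 kept their side of the threshold, 24 lost a call, 36 gained one and 0 called values changed sign. Among the 2040 were 103 values, called in neither fit, that did change sign. Leaving out 1 library at a time, the number of members called ranged from 2 to 6 in EDL at 2.5 days (3 with all libraries), 0 to 1 at 8.5 days (2 with all), 2 to 3 for EDL against SOL in Cre- mice, 3 to 4 for the EDL and 0 to 1 for the SOL mean of both days, and 0 to 3 for the muscle difference at 2.5 days and for its mean; it stayed at 0 elsewhere. DESeq2 called 4 members in EDL at 8.5 days (also on the 4 libraries alone), 1 in SOL at 2.5 days and 1 for the muscle difference at 8.5 days. Fits of 4 libraries gave 1 (edgeR) and 2 (DESeq2) in SOL at 2.5 days, and by DESeq2 1 in EDL and 2 in SOL at 5.5 days. The EDL mean gave 5 with all 24 libraries and 5 without the filter. The mean muscle difference gave 0 under total-count scaling. With the muscles paired by number (replicate block), 1 member was called for the muscle difference at 2.5 days and 3 for its mean; a block on the number within a day changed no count of members (3 and 2 in EDL, 0 in SOL) and is no pairing of genotypes. Of 120 group means of FPKM, 32 moved by 1 SD or more under TMM-scaled size. The causes were not tested. With 2 libraries per group a change of 2-fold can be missed. The simulated recovery of 55% does not measure how often, since only 200 of 15107 genes were changed there, all genes with the same dispersion. In the real EDL comparison of 2.5 days 24% of all genes were called.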
